A study of Mus musculus with 3 samples.

Results

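The renin-angiotensin genes *Agtr1a*, *Agtr1b*, *Agtr2*, *Agt*, *Ace*, *Mas1* and *Enpep* were followed through 3 single-cell libraries of the mouse ascending aorta. The 7 genes were taken by symbol from the 32285 genes of the files, and each symbol occurred 1 time. *Agtr1a* and *Agtr1b* encode the receptor that losartan blocks. One library was made from the pooled aortas of 3 WT mice. Another came from 3 mutant littermates with the genotype Fbn1 mgR/mgR (mgR), and the last from 4 mice of that genotype given losartan at 0.6 g/L in drinking water from P16 (mgR-LOS). All mice were males of strain C57BL/6J at P45. The mgR allele is hypomorphic, so the mutant mice make too little of the normal fibrillin-1 protein, and they serve as a model of severe Marfan aortic disease. Vehicle treatment of the mgR mice is not stated in the labels, and mgR served both as the mutant and as the comparison for losartan. Because the animals were pooled and each condition had 1 library, no spread between animals could be had and no p-value was computed. All intervals are exact 95% intervals that cover counting error only.

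Angiotensinogen, the product of *Agt*, is secreted mainly by the liver and is cut by renin to angiotensin I. Angiotensin-converting enzyme, the product of *Ace*, sits on the cell surface and turns angiotensin I into angiotensin II, and aminopeptidase A, the product of *Enpep*, shortens angiotensin II to angiotensin III. Angiotensin II acts on AT1 receptors, which contract vascular smooth muscle and drive matrix and inflammatory genes, and on AT2 receptors, the product of *Agtr2*, which are abundant before birth and oppose many AT1 actions. Mice carry a pair of AT1 receptor genes, whereas humans carry 1. *Mas1* encodes the receptor for angiotensin-(1-7), a shorter peptide made from the same precursor.

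All 7 genes are protein coding in the GENCODE annotation of GRCm38. *Agtr1a* (ENSMUSG00000049115) lies on the plus strand at chr13:30336441-30382867 and has its whole coding sequence in 1 exon. *Agtr1b* (ENSMUSG00000054988) lies on the minus strand at chr3:20314473-20367177, also with 1 coding exon. *Agtr2* (ENSMUSG00000068122) is at chrX:21484544-21489164 on the plus strand, and *Agt* (ENSMUSG00000031980) at chr8:124556534-124569706 on the minus strand. *Ace* (ENSMUSG00000020681) covers chr11:105967945-105989964 on the plus strand with 25 exons, and *Enpep* (ENSMUSG00000028024) chr3:129269175-129332720 on the minus strand with 20. *Mas1* (ENSMUSG00000068037) is at chr17:12841079-12868143 on the minus strand. *Agtr1a* overlaps *Gm48161* and *Mas1* overlaps *Gm24085* on the same strand, and where the counting reference holds both, reads in the overlap could be left uncounted. *Ace* overlaps *Gm11651*, *Enpep* overlaps *Gm42628* and *Mas1* overlaps *Airn* on the other strand.

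The AT1 receptor genes are close copies, so their reads could be confused where the sequences are the same. Their coding sequences are both 1077 bases long and match at 978 positions (90.8%), with a longest identical run of 66 bases. The first and last 90 coding bases of each gene are shown for this reason, with capitals at the positions where the genes differ. The first stretch is chr13:30380954-30381043 (plus strand) for *Agtr1a* and chr3:20316351-20316440 (minus strand) for *Agtr1b*, and the last is chr13:30381941-30382030 (plus strand) and chr3:20315364-20315453 (minus strand), all in GRCm38 and written 5′ to 3′.
Agtr1a, first: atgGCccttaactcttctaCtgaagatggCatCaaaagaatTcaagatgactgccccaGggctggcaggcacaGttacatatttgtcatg
Agtr1b, first: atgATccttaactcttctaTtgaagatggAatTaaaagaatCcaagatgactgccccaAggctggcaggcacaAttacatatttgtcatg
Agtr1a, last: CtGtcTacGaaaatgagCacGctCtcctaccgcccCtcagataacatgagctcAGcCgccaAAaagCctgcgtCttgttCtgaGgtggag
Agtr1b, last: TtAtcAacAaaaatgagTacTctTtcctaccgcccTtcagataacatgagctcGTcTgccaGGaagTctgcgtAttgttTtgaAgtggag
The genes differ at 8 of the first 90 and at 17 of the last 90 coding bases. Of the 2150 windows of 50 bases in the *Agtr1a* transcript, 33 occur unchanged in *Agtr1b*, and none of them lies in the last 500 bases, where a 3′ library takes most of its reads. Shared sequence thus covered a small part of the transcripts.

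*Ace* and *Enpep* differed between the libraries in smooth muscle cells, as described further on, and the 250 bases before their RefSeq starts are shown in GRCm38.p6, 5′ to 3′. That of *Ace* is chr11:105967698-105967947 on the plus strand, and that of *Enpep* chr3:129332750-129332999 on the minus strand. The reference held 2 starts for *Ace*, and only the one nearest the annotated start of the gene was read. Capitals mark matches, on either strand, to the GC box (GGGCGG) and the TATA box (TATAAA), and the 2 leftmost GC box matches of *Ace* overlap each other.
Ace: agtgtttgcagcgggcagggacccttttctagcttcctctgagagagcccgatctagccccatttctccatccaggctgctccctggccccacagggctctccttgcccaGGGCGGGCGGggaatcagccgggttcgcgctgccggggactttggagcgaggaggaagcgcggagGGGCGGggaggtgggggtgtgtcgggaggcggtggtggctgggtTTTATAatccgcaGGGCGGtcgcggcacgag
Enpep: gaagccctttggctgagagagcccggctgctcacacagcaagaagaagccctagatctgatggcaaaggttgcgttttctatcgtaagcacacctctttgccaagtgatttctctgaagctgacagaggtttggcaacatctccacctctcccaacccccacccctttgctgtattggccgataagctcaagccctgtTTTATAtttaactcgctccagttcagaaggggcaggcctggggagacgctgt
The *Ace* window held 4 GC box matches and 1 TATA box match, and the *Enpep* window held 1 TATA box match and no GC box match. Neither window held CAGAC, the core of the SMAD element, or a CArG box. Of 32851 RefSeq promoters, 32.7% held GGGCGG, 12.4% TATAAA, 42.2% CAGAC and 1.47% a CArG box, and a match is a description of letters, not of a site in use.

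A UMI marks 1 captured RNA molecule, and levels are given as CPM, the UMIs of a gene scaled to a fixed total of 1000000 UMIs per population. After the quality filter 5361 WT, 8076 mgR and 12721 mgR-LOS barcodes were left, with medians of 13636, 12410.5 and 8334 UMIs. *Fbn1*, the mutated gene, was at 361 CPM in WT, 150 CPM in mgR and 117 CPM in mgR-LOS, lower in both mutant libraries as their genotype labels call for. Barcodes were sorted into cell types by how many genes of fixed marker lists they carried, and a barcode that met more than 1 list was set aside as mixed. In the order WT, mgR and mgR-LOS, this gave 3448, 2856 and 7173 smooth muscle (SMC)-like barcodes and 1239, 2252 and 2844 fibroblast-like barcodes. Vascular endothelial (EC)-like barcodes numbered 77, 131 and 106, and macrophage-like barcodes 90, 984 and 565. Mixed barcodes numbered 363, 973 and 1600, and held 5.29%, 15.8% and 15.8% of the *Agtr1a* UMIs and 9.19%, 15.9% and 17.9% of the *Ace* UMIs. Of these barcodes, 294, 662 and 1279 met the SMC and fibroblast lists together and no list of macrophages, neutrophils, lymphocytes or dendritic cells. All 8 markers of the SMC, fibroblast and vascular EC lists were detected in their own population in each library. The populations were chosen by these same markers, so this is no separate check of the cell types. Called doublets made up 3.97%, 6.60% and 11.3% of the barcodes. The number of calls was set beforehand from the number of barcodes in each library, so these percentages do not measure a difference in doublets. Between pairs of libraries, 22 to 46 barcode sequences were shared.

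The whole series held 38059 UMIs of *Ace*, 2059 of *Enpep*, 822 of *Agtr1a*, 157 of *Agt*, 97 of *Agtr1b*, 97 of *Agtr2* and 2 of *Mas1* in the filtered barcodes. *Ace* was thus measured precisely in each large population, *Enpep* and *Agtr1a* in SMC-like and fibroblast-like cells, and the remaining genes only coarsely. Both *Mas1* UMIs came from SMC-like cells, 1 of them in WT and the other in mgR. The absence of *Mas1* from the SMC-like barcodes of mgR-LOS allows a level of up to 0.0473 CPM.

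*Agtr1a*, the main AT1 receptor gene of the rodent vessel wall, was found in SMC-like and fibroblast-like cells and was not detected in endothelium. In SMC-like cells it was at 2.50 CPM (2.08 to 2.99) in WT, 1.93 CPM (1.55 to 2.39) in mgR, with 2.93 CPM (2.52 to 3.38) in mgR-LOS. In fibroblast-like cells it was at 2.75 CPM (1.93 to 3.79) in WT, 5.73 CPM (4.87 to 6.70) in mgR, with 4.63 CPM (3.79 to 5.60) in mgR-LOS. The order of the cell types was thus flat in WT, where the fibroblast level was 1.10 times the SMC level (0.739 to 1.596), whereas in mgR the fibroblast level was higher, with a ratio of 2.97 (2.27 to 3.90). In mgR-LOS the ratio was 1.58 (1.23 to 2.02), and its interval did not meet that of mgR. SMC-like cells held 72.4% of all *Agtr1a* UMIs in WT, 28.3% in mgR and 53.5% in mgR-LOS, a share that also moves with the number of SMC-like barcodes.

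*Agtr1a* had 0 UMIs in vascular EC-like cells of all 3 libraries, which allows up to 4.68 CPM in WT, 2.92 CPM in mgR and 4.29 CPM in mgR-LOS. Within a single library a level like that of SMC-like cells could not be seen at this depth, whereas the fibroblast level of mgR lay above what the mgR endothelium allows. Over the 3 libraries summed, the 0 UMIs of vascular EC-like cells allow up to 1.27 CPM of *Agtr1a* (upper bound of the interval 1.56 CPM), below the 2.51 CPM (2.27 to 2.77) of SMC-like cells and the 4.71 CPM (4.19 to 5.27) of fibroblast-like cells summed the same way. Lymphatic EC-like cells also had 0 *Agtr1a* UMIs, which over the 3 libraries allow up to 2.54 CPM, a limit that is not below the SMC level. Macrophage-like cells held 1 *Agtr1a* UMI in 984 mgR barcodes and none in WT or mgR-LOS, and these cells served as the background of free RNA. In WT the 0 UMIs of 90 macrophage-like barcodes allow up to 3.43 CPM, which is not below the WT level of SMC-like or fibroblast-like cells.

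*Agtr1a* was also found in small populations. Mesothelial-like cells, which line the outer surface of vessels and heart, were at 15.9 CPM in WT, 21.9 CPM in mgR and 17.1 CPM in mgR-LOS, from 1, 6 and 2 UMIs in 8, 22 and 17 barcodes. Only the mgR value had enough UMIs for a comparison, and it was 3.82 times that of fibroblast-like cells (1.38 to 8.498). The 9 pericyte-like barcodes of mgR held 5 *Agtr1a* UMIs, or 60.6 CPM (19.7 to 141). Pericytes wrap small vessels, and with 1 WT and 5 mgR-LOS barcodes no comparison between libraries could be made.

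**Figure D1:**
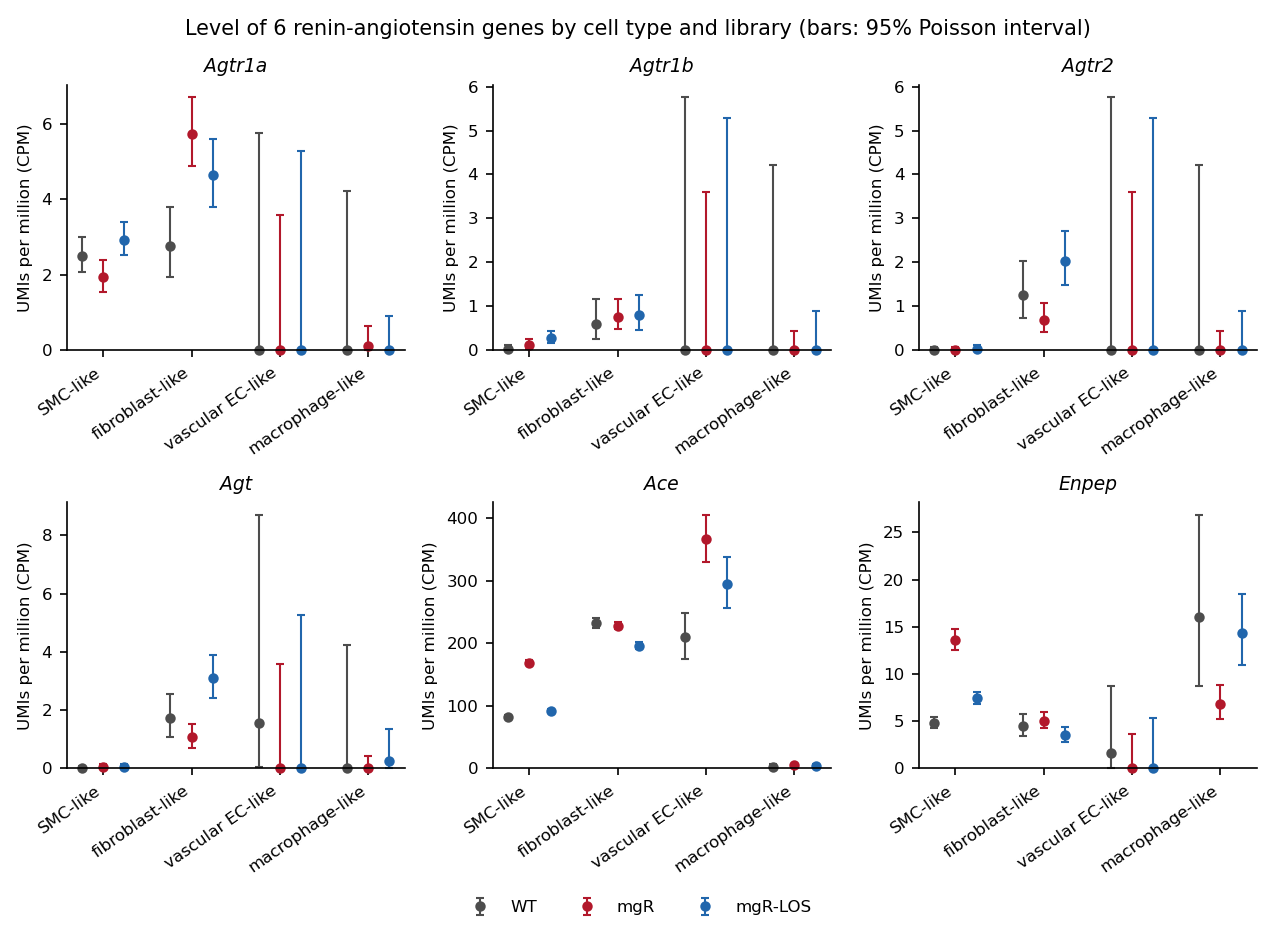
Levels of 6 genes (y axis, CPM) in 4 cell types (x axis) of the WT, mgR and mgR-LOS libraries, with points for the level and bars for the exact 95% Poisson interval. *Ace* in SMC-like cells stands at 169 CPM in mgR against 82.6 CPM in WT and 92.2 CPM in mgR-LOS, *Agtr1a* in fibroblast-like cells is highest in mgR, and the receptors are at 0 in endothelium with wide intervals.

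Between mgR and WT, *Agtr1a* was 2.09 times as high in mgR fibroblast-like cells (1.45 to 3.07), from 157 against 37 UMIs. It was carried by 5.20% of mgR, 2.74% of WT and 3.34% of mgR-LOS fibroblast-like barcodes without thinning, at median depths of 11895.5, 11171 and 7829.5 UMIs. After thinning to 1000 UMIs those shares were 0.799%, 0.242% and 0.528%, against 0.102% in mgR macrophage-like cells. Thinning left few barcodes with an *Agtr1a* UMI, so these shares are coarse, among fibroblast-like cells that of WT most of all. In mgR-LOS the *Agtr1a* level of fibroblast-like cells was 0.808 times that of mgR (0.625 to 1.04), an interval that includes 1, and 1.68 times that of WT (1.15 to 2.52). In SMC-like cells *Agtr1a* was 0.772 times as high in mgR as in WT (0.579 to 1.02) and 1.52 times as high in mgR-LOS as in mgR (1.17 to 1.98). The SMC ratio of mgR over WT was 1.35 when barcodes with more than 5% mitochondrial UMIs were left out, which removed most SMC-like barcodes. The summed pericyte marker list stood in the same order as *Agtr1a* in mgR and WT, at 474, 577 and 506 CPM in fibroblast-like cells (6, 7 and 7 of 8 markers detected) and at 335, 215 and 247 CPM in SMC-like cells (7, 7 and 8 of 8), and its part in the *Agtr1a* values was not tested.

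The higher *Agtr1a* level of mgR fibroblast-like cells was seen in both of their large marker-defined subgroups. In the Pi16 subgroup (*Pi16*, *Dpp4* and related markers, genes known from progenitor-like fibroblasts) it was at 4.55 CPM in WT, 8.59 CPM in mgR and 9.48 CPM in mgR-LOS, from 12, 67 and 53 UMIs. In the Gdf10 Hsd11b1 subgroup it was at 1.94 CPM in WT, 7.67 CPM in mgR and 5.28 CPM in mgR-LOS, from 3, 55 and 26 UMIs. Both subgroups were higher in mgR than in WT, by 1.89 times (1.01 to 3.83) and 3.96 times (1.29 to 19.8). Valve-like fibroblasts, which carry cartilage and tendon genes such as *Comp* and *Chad*, held 4, 1 and 1 *Agtr1a* UMIs. The remaining fibroblast-like cells were at 2.54, 3.13 and 2.19 CPM, with a ratio of mgR over WT of 1.23 (0.676 to 2.31). The Pi16 and Gdf10 Hsd11b1 subgroups also took a larger part of the fibroblast-like barcodes in mgR, 563 and 589 of 2252 against 218 and 151 of 1239 in WT. With subgroups weighted by their shares of UMIs in WT, a choice made after the data had been seen, the ratio of mgR over WT was 1.57.

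Within SMC-like cells *Agtr1a* was found in each of 3 marker sets. It was at 2.37, 1.53 and 2.69 CPM (WT, mgR, mgR-LOS) in cells with *Sost*, *Acan* and *Susd5*, at 2.48, 2.65 and 3.20 CPM in cells with *Rbp4* and *Wif1*, and at 1.83, 1.61 and 2.44 CPM in cells with *Tnnt2* and *Tcap*. These sets can overlap, and all 3 intervals of mgR over WT included 1. The ratio of mgR-LOS over mgR was 1.76 (1.17 to 2.68) in *Sost* *Acan* *Susd5* cells, and its intervals in the other sets included 1. Modulated SMC-like cells, which carry at least 4 of *Vcam1*, *Spp1*, *Lum*, *Timp1*, *Tnfrsf11b* and *Col8a1*, numbered 14 in WT, 317 in mgR and 58 in mgR-LOS. Barcodes were not thinned for this choice, and SMC-like barcodes had medians of 14416, 15339 and 8433 UMIs, so these numbers also move with depth. In mgR they held 9 *Agtr1a* UMIs, and their level was 0.748 times that of the other SMC-like cells (0.330 to 1.49).

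*Agtr1b*, the other AT1 receptor gene, was found in fibroblast-like cells, SMC-like cells and mixed barcodes. Fibroblast-like cells held 8, 21 and 18 of its 15, 34 and 48 UMIs in WT, mgR and mgR-LOS, and mixed barcodes 6, 8 and 12. In fibroblast-like cells it was at 0.594 CPM (0.256 to 1.17) in WT, 0.767 CPM (0.475 to 1.17) in mgR, with 0.793 CPM (0.470 to 1.25) in mgR-LOS. SMC-like cells held 1 *Agtr1b* UMI in WT, 5 in mgR and 18 in mgR-LOS, or 0.0203, 0.112 and 0.284 CPM. Their ratio of mgR-LOS over WT was 13.9 (2.20 to 581), and that of mgR-LOS over mgR was 2.53 (0.903 to 8.70). The fibroblast intervals overlapped in all 3 libraries, and *Agtr1b* was higher in fibroblast-like than in SMC-like cells, by 6.82 times (2.50 to 23.2) in mgR and 2.80 times (1.37 to 5.70) in mgR-LOS, with a single SMC UMI in WT. Within fibroblast-like cells the level was highest in the Gdf10 Hsd11b1 subgroup, at 3.23, 1.95 and 1.63 CPM (5, 14 and 8 UMIs), while the Pi16 subgroup had 1, 0 and 2 *Agtr1b* UMIs. The interval of Pi16 over Gdf10 Hsd11b1 lay below 1 in mgR (up to 0.277). It included 1 in WT (0.00249 to 1.05) and in mgR-LOS (0.0228 to 1.10). The 5 WT UMIs came from 3 barcodes, with up to 3 in a barcode. *Agtr1a*, by contrast, had UMIs in both subgroups of each library. *Agtr1a* and *Agtr1b* were found together in 1 WT and 1 mgR SMC-like barcode and in 1 mgR fibroblast-like barcode.

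*Agtr2*, the AT2 receptor gene, was mostly found in fibroblast-like cells, with 17, 19 and 46 UMIs in WT, mgR and mgR-LOS, against 0, 0 and 2 UMIs in SMC-like cells. Its fibroblast level was 1.26 CPM (0.735 to 2.02) in WT, 0.694 CPM (0.418 to 1.08) in mgR, with 2.03 CPM (1.48 to 2.70) in mgR-LOS. The level in mgR was 0.550 times that in WT (0.270 to 1.12), and that in mgR-LOS was 2.92 times that in mgR (1.68 to 5.28). Its levels by subgroup ran in different orders. The Pi16 subgroup was at 3.41, 1.03 and 0.716 CPM (9, 8 and 4 UMIs), and the Gdf10 Hsd11b1 subgroup at 1.94, 0.697 and 4.47 CPM (3, 5 and 22 UMIs). In the Gdf10 Hsd11b1 subgroup the ratio of mgR-LOS over mgR was 6.41 (2.37 to 21.7). Valve-like fibroblasts held no *Agtr2* UMI in the 3 libraries.

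*Agt*, the angiotensinogen gene, was also mostly found in fibroblast-like cells. Fibroblast-like cells were at 1.71 CPM (1.08 to 2.56) in WT, 1.06 CPM (0.709 to 1.52) in mgR, with 3.09 CPM (2.40 to 3.90) in mgR-LOS, from 23, 29 and 70 UMIs. SMC-like cells held 0, 1 and 3 *Agt* UMIs. In fibroblast-like cells mgR over WT gave 0.620 (0.346 to 1.12), and that of mgR-LOS over mgR was 2.91 (1.87 to 4.66). The Gdf10 Hsd11b1 subgroup was at 4.52, 2.23 and 6.50 CPM (7, 16 and 32 UMIs) against 0.379, 0.256 and 0.358 CPM (1, 2 and 2 UMIs) in the Pi16 subgroup. The WT value of the Gdf10 Hsd11b1 subgroup came from 2 barcodes, 1 of which held 5 UMIs. In mgR the Pi16 level of *Agt* was 0.115 times the Gdf10 Hsd11b1 level (0.0128 to 0.489). A few barcodes carried much of the signal, since 70 UMIs in mgR-LOS came from 45 barcodes, 1 of which held 9. In fibroblast-like cells the summed mesothelial marker list was at 2.23, 10.4 and 10.3 CPM (5 of 6 markers detected in each library) and the SMC list at 1256, 1615 and 1452 CPM (8 of 8), and the part of these cells in the fibroblast values was not tested.

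**Figure D2:**
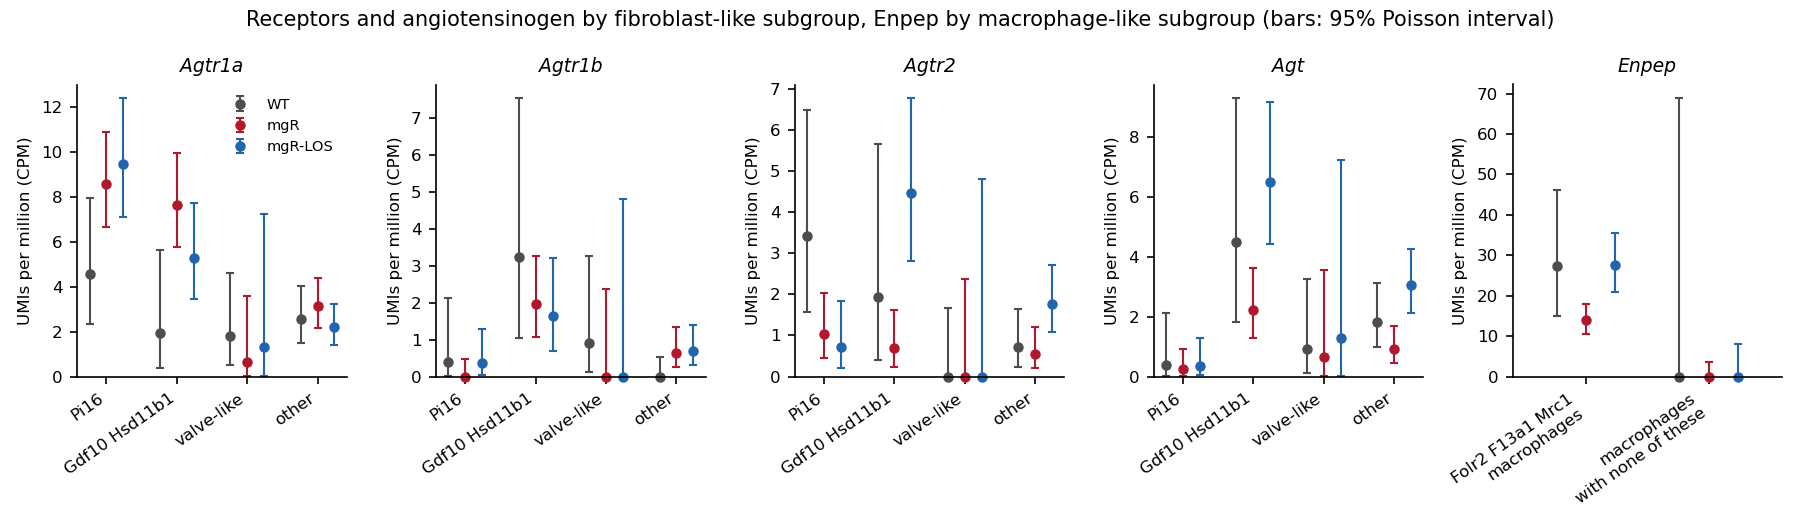
Levels (y axis, CPM) of the 3 receptor genes and *Agt* in 4 fibroblast-like subgroups, and of *Enpep* in macrophage-like cells with all or none of *Folr2*, *F13a1* and *Mrc1*, in each library, with bars for the exact 95% Poisson interval. *Agtr1a* is present in the Pi16 and Gdf10 Hsd11b1 subgroups, and *Agt* is higher in the Gdf10 Hsd11b1 than in the Pi16 subgroup. *Agtr1b* stands in the same order from few UMIs, and *Enpep* was at 0 in macrophage-like cells with none of the markers.

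*Ace*, the converting enzyme gene, was at 82.6 CPM (80.1 to 85.2) in WT SMC-like cells, 169 CPM (165 to 173) in mgR, with 92.2 CPM (89.9 to 94.6) in mgR-LOS. The mgR level was 2.04 times the WT level (1.97 to 2.12), and the mgR-LOS level was 0.546 times the mgR level (0.528 to 0.565) and 1.12 times the WT level (1.07 to 1.16). The shares of SMC-like barcodes with an *Ace* UMI after thinning to 1000 UMIs were 7.58% (6.72 to 8.51), 14.4% (13.1 to 15.7) and 8.61% (7.97 to 9.28), against 0, 0.814% and 0.531% in macrophage-like cells, which have little *Ace*. Without thinning, the SMC shares were 57.7%, 71.1% and 43.8%. The share of carrying cells at equal depth was thus highest in mgR, as was the summed level. The 10% of SMC-like barcodes with the most *Ace* UMIs held 38.9%, 42.4% and 47.7% of them. Mixed barcodes with SMC and fibroblast markers were at 159, 257 and 135 CPM of *Ace*.

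Modulated SMC-like cells carried more *Ace* than the other SMC-like cells of their library, and *Ace* was highest in mgR in both groups. The other SMC-like cells carried fewer than 4 of the modulated markers, so they can include cells with some of them. The part of such cells in the *Ace* values was not tested. *Ace* was at 175 CPM in modulated cells of WT, 358 CPM in mgR and 221 CPM in mgR-LOS, which was 2.13 (1.52 to 2.89), 2.57 (2.44 to 2.70) and 2.43 (2.07 to 2.84) times the level of the other SMC-like cells. In SMC-like cells that were not modulated *Ace* was at 82.2, 139 and 90.7 CPM. Their level in mgR over that in WT was 1.69 (1.63 to 1.77) and that of mgR-LOS over mgR 0.651 (0.627 to 0.676). The same order of libraries was seen in each of the SMC-like marker sets, which can contain modulated cells. Ratios of mgR over WT were 1.99 (1.85 to 2.13) in *Sost* *Acan* *Susd5* cells, 2.28 (2.10 to 2.47) in *Rbp4* *Wif1* cells and 2.68 (2.50 to 2.88) in *Tnnt2* *Tcap* cells. The summed fibroblast marker list in SMC-like cells was also highest in mgR, at 3448, 4208 and 3090 CPM (8 of 8 markers detected in each library, none at 0). Unlike *Ace*, it was lower in mgR-LOS than in WT. It stood at 28990 to 37730 CPM in fibroblast-like cells, and its part in the *Ace* values was not tested.

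In fibroblast-like cells *Ace* was at 232.5 CPM (224 to 241) in WT, 228 CPM (222 to 234) in mgR, with 196 CPM (191 to 202) in mgR-LOS. Its mgR over WT ratio was 0.980 (0.939 to 1.02) and that of mgR-LOS over mgR 0.861 (0.828 to 0.895). Subgroups differed in direction beneath this total. Between WT and mgR, *Ace* was lower in the Pi16 subgroup (225 against 132 CPM, ratio 0.588, 0.531 to 0.651) and higher in valve-like fibroblasts (106 against 242 CPM, ratio 2.27, 1.92 to 2.68). In the Gdf10 Hsd11b1 subgroup it was at 305 CPM in WT, 281 CPM in mgR and 188 CPM in mgR-LOS, and the ratio of mgR-LOS over mgR was 0.669 (0.618 to 0.723). Valve-like fibroblasts of mgR-LOS were at 286 CPM, 1.18 times the mgR level (0.998 to 1.40), and the Pi16 subgroup of mgR-LOS was at 132 CPM.

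In vascular EC-like cells, the textbook site of converting enzyme, *Ace* was at 209 CPM (175 to 248) in WT, 366 CPM (330.0 to 405) in mgR, with 295 CPM (256 to 338) in mgR-LOS. Its mgR over WT ratio was 1.75 (1.43 to 2.15) and that of mgR-LOS over mgR 0.805 (0.676 to 0.957). In WT the levels of vascular EC-like and fibroblast-like cells were within counting error of each other (ratio 0.900, 0.751 to 1.07), and both were above SMC-like cells, by 2.53 times (2.12 to 3.01) and 2.81 times (2.68 to 2.95). In mgR the order was vascular EC-like, fibroblast-like and SMC-like, with a ratio of EC-like over fibroblast-like of 1.61 (1.44 to 1.78). *Ace* in luminal EC-like cells (*Vwf*, *Heg1*, *Cytl1*) was at 327, 497 and 374 CPM. In capillary EC-like cells (*Gpihbp1*, *Cd36*) it was at 29.7, 91.8 and 96.3 CPM, from 2, 17 and 5 UMIs. The luminal level was 5.42 times the capillary level in mgR (3.33 to 9.40) and 3.88 times in mgR-LOS (1.63 to 12.1). Luminal cells alone gave 1.52 for mgR over WT (1.24 to 1.88). Lymphatic EC-like cells were at 62.9, 14.4 and 35.6 CPM, from 12, 9 and 13 UMIs. The fibroblast marker list in vascular EC-like cells was at 2084, 2039 and 3722 CPM (8 of 8 markers detected in each library), and its part in the *Ace* values was not tested. Macrophage-like cells were at 1.14, 4.41 and 4.13 CPM of *Ace*.

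**Figure D3:**
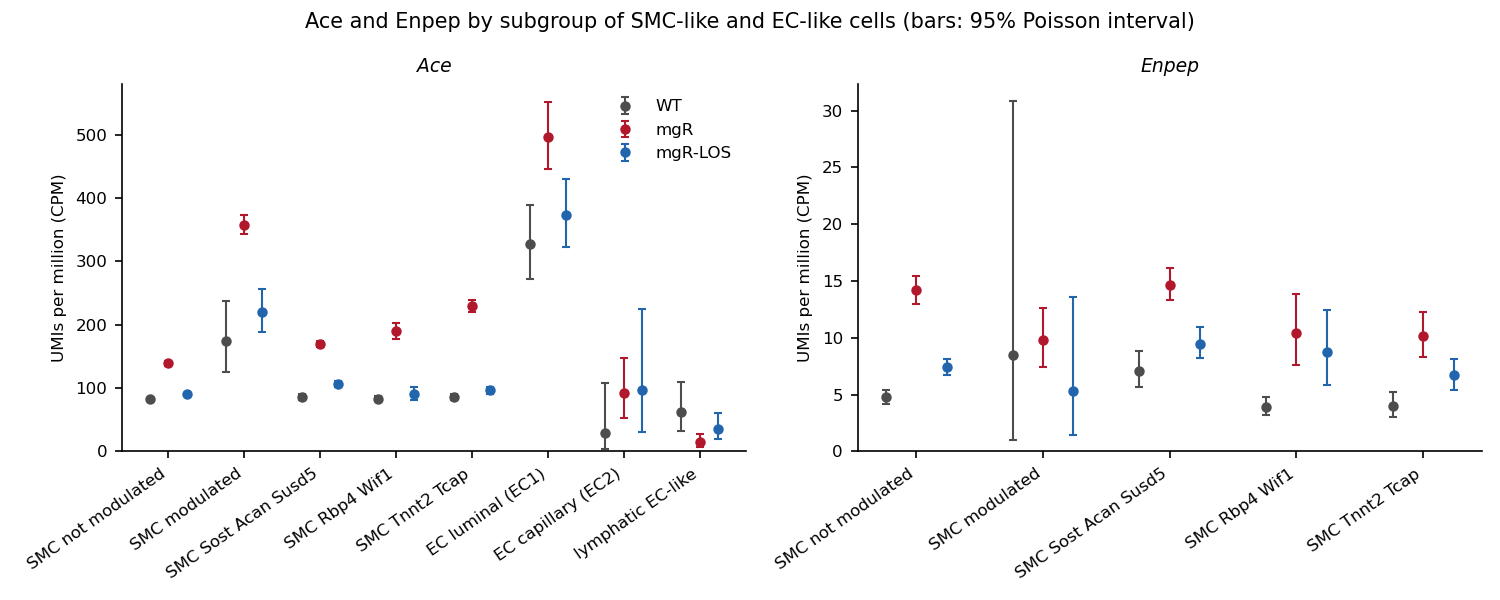
Levels of *Ace* in subgroups of SMC-like, vascular EC-like and lymphatic EC-like cells and of *Enpep* in subgroups of SMC-like cells (y axes, CPM) for the WT, mgR and mgR-LOS libraries, with bars for the exact 95% Poisson interval. *Ace* is highest in mgR in each SMC-like subgroup and in luminal EC-like cells, whereas *Enpep* in modulated cells, at 8.53, 9.81 and 5.32 CPM, has overlapping intervals.

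*Enpep*, the aminopeptidase A gene, showed the same order of libraries as *Ace* in SMC-like cells. It was at 4.80 CPM (4.21 to 5.46) in WT, 13.6 CPM (12.5 to 14.7) in mgR, with 7.41 CPM (6.75 to 8.11) in mgR-LOS. Its mgR over WT ratio was 2.83 (2.43 to 3.31), that of mgR-LOS over mgR 0.545 (0.482 to 0.616) and that of mgR-LOS over WT 1.54 (1.32 to 1.81). *Enpep* was not higher in modulated than in other SMC-like cells of mgR, with 9.81 against 14.2 CPM and a ratio of 0.691 (0.519 to 0.905). Before thinning, 5.42% of WT, 15.1% of mgR and 5.65% of mgR-LOS SMC-like barcodes carried *Enpep*, and after thinning 0.610%, 1.23% and 0.614% did. Of the 431 mgR SMC-like barcodes with *Enpep*, 281 also carried *Ace*, where 2031 of 2856 carried *Ace* in all.

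*Enpep* in fibroblast-like cells was at 4.46 CPM (3.40 to 5.73) in WT, 5.04 CPM (4.23 to 5.95) in mgR, with 3.53 CPM (2.80 to 4.39) in mgR-LOS. Its mgR over WT ratio was 1.13 (0.829 to 1.56) and that of mgR-LOS over mgR 0.700 (0.525 to 0.928). *Enpep* was also found in mesothelial-like and pericyte-like cells and in 1 kind of macrophage. The 15 pericyte-like barcodes of the 3 libraries held 7 *Enpep* UMIs, or 62.8 CPM (25.3 to 129), 5 of them in mgR. Mesothelial-like cells were at 95.5, 83.9 and 59.9 CPM from 6, 23 and 7 UMIs, and in mgR this was 16.7 times the fibroblast level (10.2 to 26.0). Macrophage-like cells with *Folr2*, *F13a1* and *Mrc1*, markers of resident macrophages, were at 27.5 CPM (15.02 to 46.1) in WT, 14.0 CPM (10.6 to 18.1) in mgR, with 27.6 CPM (21.0 to 35.6) in mgR-LOS. In the 5 WT, 147 mgR and 73 mgR-LOS macrophage-like barcodes with none of these markers no *Enpep* UMI was found, which with so few WT barcodes leaves WT undecided. Among these resident macrophage-like cells mgR over WT gave 0.509 (0.280 to 0.988) and that of mgR-LOS over mgR 1.98 (1.35 to 2.89), opposite in direction to SMC-like cells. The WT value is coarse, since its 14 UMIs came from 7 barcodes, with up to 4 in a barcode. Vascular EC-like cells held 1, 0 and 0 *Enpep* UMIs.

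To set these ratios against all genes, a gene was counted as higher or lower when it had at least 100 UMIs over both libraries and differed by 1.5 times or more. *Agtr1a*, *Ace* and *Enpep* had enough UMIs in each comparison, and *Agtr1b*, *Agtr2*, *Agt* and *Mas1* had too few, so 3 of 7 were read. In SMC-like cells between mgR and WT, 2 were higher (*Ace* and *Enpep*), where 6.61% of the 11595 genes read were higher, and 0 were lower, where 6.9% were. The *Ace* ratio was reached or passed by 3.04% of genes and the *Enpep* ratio by 1.79%. In SMC-like cells between mgR-LOS and mgR, 1 was higher (*Agtr1a*, against 8.15% of 11884 genes) and 2 were lower (*Ace* and *Enpep*, against 4.59%). The *Agtr1a* ratio of 1.51 lay just past the limit of 1.5 and was reached or passed by 7.84% of genes, and the call was lost with graph clusters (1.41), without called doublets (1.43) and without modulated cells (1.48). All these ratios stayed above 1. There 1.96% of genes were as low as *Ace* or lower, and 1.94% as low as *Enpep* or lower. In fibroblast-like cells between mgR and WT, 1 was higher (*Agtr1a*, against 7.01% of 11250 genes) and 0 were lower (against 6.07%), and 3.09% of genes reached the *Agtr1a* ratio. In fibroblast-like cells between mgR-LOS and mgR, 0 were higher and 0 lower, against 4.88% and 4.41% of 11559 genes. The median log2 ratio of all genes was -0.03, 0.06, -0.01 and 0.01 in these 4 comparisons. Since mgR is in both, a gene that is high in mgR alone is higher in the one and lower in the other.

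**Figure D4:**
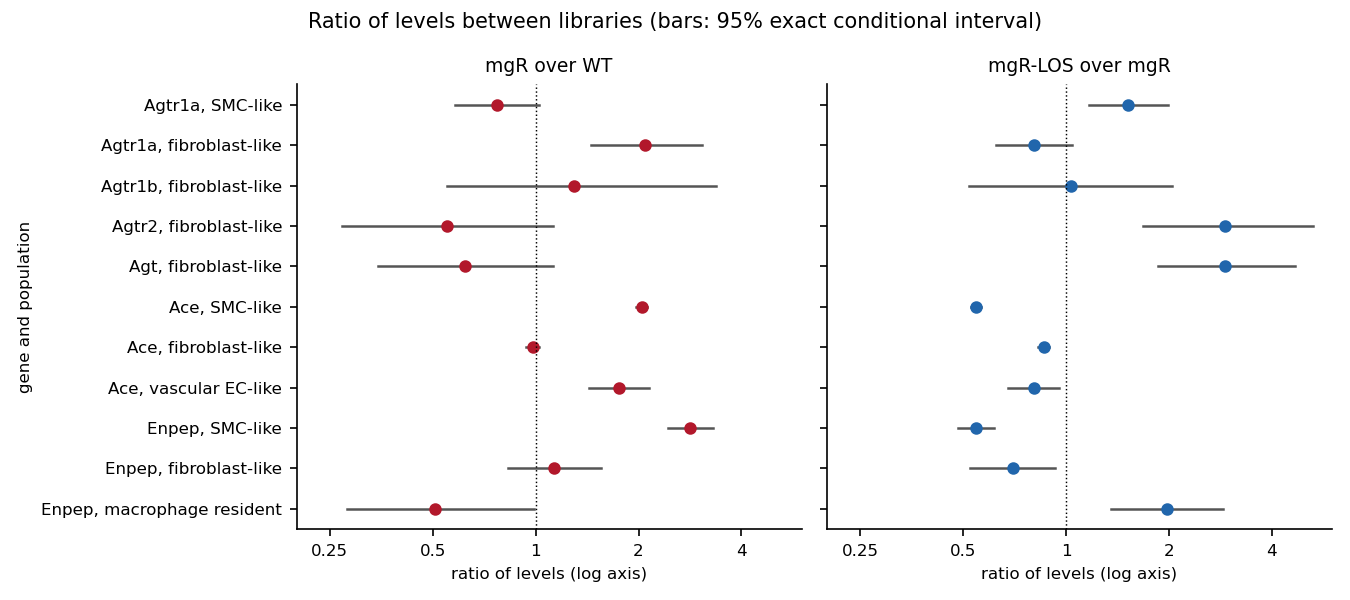
Ratios of levels between libraries (x axes, log scale) for 6 genes in the populations named on the y axis, mgR over WT on the left and mgR-LOS over mgR on the right, with bars for the exact 95% conditional interval and a dotted line at 1. *Ace* and *Enpep* in SMC-like cells lie above 1 on the left and below 1 on the right, *Agtr2* and *Agt* in fibroblast-like cells lie above 1 on the right, and the left intervals of both include 1.

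A list of 18 further renin-angiotensin enzymes and receptors was read in the same way. In SMC-like cells 10 of them had enough UMIs, of which 0 were higher and 1 lower in mgR than in WT (median ratio 0.932, all genes 0.979), and 1 was higher and 0 lower in mgR-LOS than in mgR. In fibroblast-like cells 11 had enough, with 0 higher and 1 lower and then 1 higher and 0 lower. These counts are near what the shares over all genes give (6.61% higher and 6.9% lower, then 8.15% and 4.59%, in SMC-like cells, and 7.01% and 6.07%, then 4.88% and 4.41%, in fibroblast-like cells), so they are no result about the list. The gene called in SMC-like cells was *Anpep*, which encodes aminopeptidase N, the enzyme that shortens angiotensin III, at 1.99, 0.629 and 1.58 CPM. The gene called in fibroblast-like cells was *Mme*, which encodes neprilysin, an enzyme that makes angiotensin-(1-7), at 30.8, 10.99 and 23.6 CPM. For *Mme*, mgR over WT gave 0.357 (0.306 to 0.415) and that of mgR-LOS over mgR 2.15 (1.86 to 2.48). *Lnpep*, which encodes the insulin-regulated aminopeptidase that binds angiotensin IV, had the highest level of the list in SMC-like cells, at 216, 196 and 187 CPM. *Atp6ap2*, the prorenin receptor gene, had the highest level of the list in fibroblast-like cells, at 136, 98.3 and 101.5 CPM, and *Ctsa*, which encodes cathepsin A, in macrophage-like cells, at 270, 344 and 319 CPM. In vascular EC-like cells *Prcp*, a carboxypeptidase gene, was lower in mgR-LOS than in mgR, at 34.3 against 85.7 CPM.

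*Ren1*, the renin gene, is named outside the rule as the enzyme that acts on angiotensinogen, and its values had been seen. Of its 556 UMIs, 83, 224 and 207 lay in fibroblast-like cells, at 6.16, 8.18 and 9.12 CPM, with 0, 1 and 1 UMI in SMC-like cells and none in vascular EC-like or macrophage-like cells. Within fibroblast-like cells its level was higher in the Pi16 subgroup, at 20.5, 21.2 and 18.1 CPM, than in the Gdf10 Hsd11b1 subgroup, at 2.58, 0.279 and 0.812 CPM. Between these subgroups *Ren1* was thus higher in Pi16 and *Agt* in Gdf10 Hsd11b1. Of the 122 *Agt* UMIs of fibroblast-like cells over the 3 libraries, 55 lay in the Gdf10 Hsd11b1 subgroup and 58 in the remaining fibroblast-like cells. Mesothelial-like cells held 1, 17 and 6 *Ren1* UMIs, or 62.0 CPM in mgR. *Mcpt4*, *Cma1* and *Cpa3*, genes of mast cell proteases that can act on angiotensins, also chose the 5 mast cell-like barcodes, and in SMC-like cells they were at 0.678 against 0.247 CPM, 0.599 against 0.202 CPM and 0.504 against 0.0674 CPM in mgR-LOS and mgR. The whole mast cell list, which contains these genes, stood in the same order. In SMC-like cells the list was at 0.916, 1.86 and 3.53 CPM (4, 5 and 6 of 6 markers detected). It was at 0.520, 1.53 and 2.91 CPM in fibroblast-like cells (2, 5 and 5 of 6). Macrophage-like cells had 0, 2.09 and 5.83 CPM of it (0, 6 and 5 of 6). The levels of these protease genes are not read as an SMC difference, and the part of free RNA in them was not tested.

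Of the 18 genes of AT1 receptor coupling and turnover, 17 had enough UMIs. In SMC-like cells 0 were higher and 2 lower in mgR than in WT, and 1 was higher and 0 lower in mgR-LOS than in mgR. In fibroblast-like cells 3 were higher and 0 lower in mgR than in WT, and 0 were higher and 2 lower in mgR-LOS than in mgR. Over all genes 6.61% were higher and 6.9% lower, then 8.15% and 4.59%, in SMC-like cells, and 7.01% and 6.07%, then 4.88% and 4.41%, in fibroblast-like cells, so the SMC counts are near the background. The fibroblast counts rest on 3 and 2 genes, with *Rgs5* in both, and are not read as a result about the list. The list medians in fibroblast-like cells were 1.17 and 0.946, against 0.993 and 1.01 over all genes. *Rgs5* and *Rgs2*, which encode brakes on Gq signaling, the main route of the AT1 receptor, were the genes that were lower in SMC-like cells. *Rgs5* was at 122, 24.4 and 40.4 CPM and *Rgs2* at 55.3, 9.41 and 14.1 CPM in SMC-like cells. In fibroblast-like cells both went the other way, with *Rgs5* at 75.7, 136 and 86.0 CPM and *Rgs2* at 38.4, 62.9 and 56.7 CPM. *Rgs5* is also a pericyte marker, and it is part of the pericyte list given beside *Agtr1a*. *Plcb4*, a phospholipase C of the Gq route, had the highest level of the list in SMC-like cells, at 429.5, 314 and 413.5 CPM. *Grk5*, a receptor kinase, was the third gene higher in mgR fibroblast-like cells, at 30.2, 52.8 and 38.4 CPM, and *Rgs4* was lower in mgR-LOS than in mgR, at 3.39 against 8.98 CPM. *Rgs5* was also lower in mgR-LOS than in mgR in the Gdf10 Hsd11b1 subgroup, at 9.75 against 157 CPM, and in vascular EC-like cells, at 18.6 against 79.8 CPM.

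The list of 9 kinin and mineralocorticoid genes was sparse, with 1 to 5 genes that had enough UMIs. In fibroblast-like cells *Bdkrb2*, the B2 kinin receptor gene, was at 0.520, 1.68 and 3.92 CPM. *Kng2*, a kininogen gene, was at 0.0742, 3.80 and 0.881 CPM, and *Hsd11b2*, whose enzyme shields the mineralocorticoid receptor from glucocorticoids, at 4.53, 2.37 and 6.92 CPM. The WT value of *Kng2* lay below the 0.223 CPM that 3 UMIs give in WT fibroblast-like cells, so its difference from mgR is coarse. *Nr3c2*, the mineralocorticoid receptor gene, was at 5.37, 3.84 and 7.34 CPM in SMC-like cells, with a ratio of mgR-LOS over mgR of 1.91.

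Genes that angiotensin II raises in textbook accounts were read as a further list of 11, of which 10 had enough UMIs. The list was chosen with earlier results of these data known, and mgR is in both comparisons. Its counts and medians are thus descriptions, and a link to angiotensin II or losartan was not tested. In SMC-like cells 4 were higher and 2 lower in mgR than in WT, with a median ratio of 1.40, and 1 was higher and 6 lower in mgR-LOS than in mgR, with a median of 0.634. In fibroblast-like cells 5 were higher and 0 lower (median 1.57), and then 0 were higher and 6 lower (median 0.594). Over all genes the medians were 0.979 and 1.04 in SMC-like and 0.993 and 1.01 in fibroblast-like cells. The shares over all genes were 6.61% higher and 6.9% lower, then 8.15% and 4.59%, in SMC-like cells, and 7.01% and 6.07%, then 4.88% and 4.41%, in fibroblast-like cells. *Ccl2*, a monocyte attractant, was at 1.30, 10.9 and 6.73 CPM in SMC-like and 58.7, 444 and 184 CPM in fibroblast-like cells. *Ccn2*, which encodes connective tissue growth factor, was at 2107, 2232 and 676 CPM in SMC-like cells, and was thus lower in mgR-LOS than in WT as well. *Edn1*, the endothelin gene, went the other way in SMC-like cells, at 10.3, 3.84 and 13.5 CPM. *Il6*, an inflammatory cytokine gene, was at 0.611, 3.37 and 3.72 CPM in SMC-like and 100.5, 296 and 190 CPM in fibroblast-like cells. *Ccn1*, a matricellular gene, had the highest level of the list in vascular EC-like cells, at 673, 852 and 246 CPM. *Spp1* was at 1.06, 23.9 and 1.29 CPM in SMC-like cells, but it is among the genes that defined modulated cells. Many other stimuli act on these genes, and the macrophage list in SMC-like cells was at 8.77, 29.1 and 42.6 CPM (8 of 8 markers detected), whose part was not tested.

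**Figure D5:**
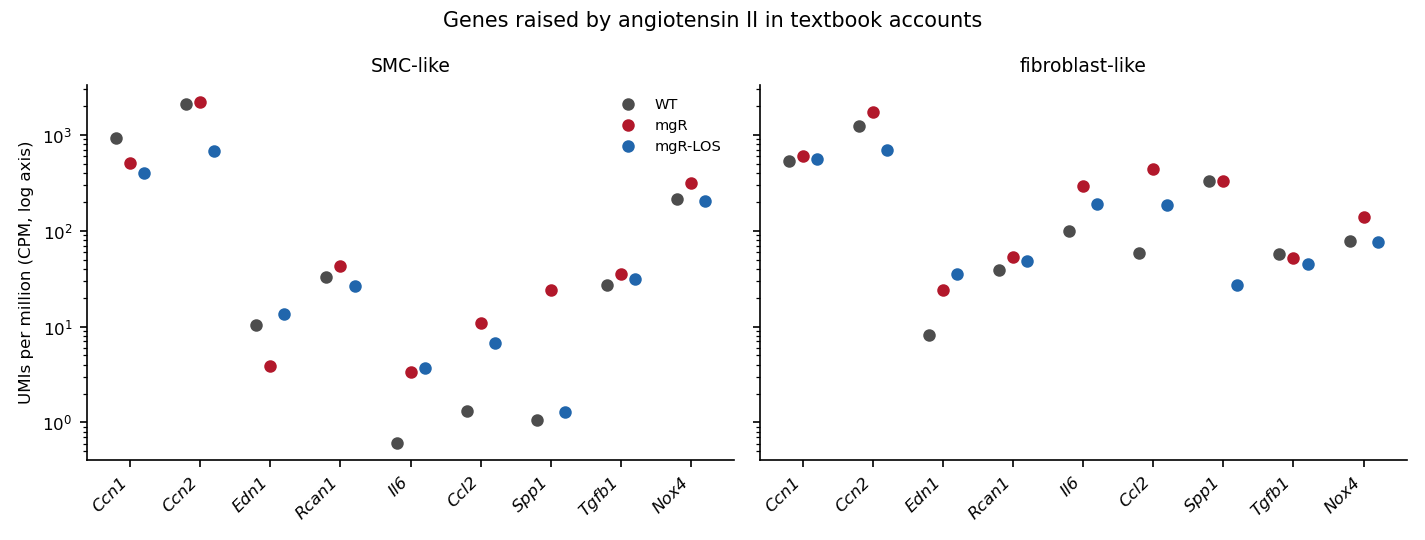
Levels of 9 genes that angiotensin II raises in textbook accounts (y axis, CPM, log scale) in SMC-like cells (left) and fibroblast-like cells (right) of the WT, mgR and mgR-LOS libraries. *Nox4* is highest in mgR in both cell types, *Ccn2* is lowest in mgR-LOS in both, and *Edn1* is lowest in mgR in SMC-like cells.

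The genes most like each receptor or enzyme were taken from 12473 genes by Pearson correlation of log2(CPM + 1) over 29 populations of the 3 libraries. The points share libraries and depth, so the correlations are descriptions. For *Agtr1a* they were *Dact1* (r = 0.907), *Pla2r1* (0.901), *Vgll3* (0.894), *Medag* (0.874) and *Ephb3* (0.872). For *Agt* they were *Egflam* (0.908), *Angpt4* (0.906), *Cntn6* (0.903), *Inmt* (0.893), which is a marker of the Gdf10 Hsd11b1 subgroup, and *Lrat* (0.885). For *Ace* they were *Pam* (0.966), *Fbln5* (0.963), *Bgn* (0.963) and *Gxylt2* (0.959). For *Enpep* they were *Epb41l1* (0.860), *Pdgfc* (0.832), *Etv1* (0.821), *Maoa* (0.80) and *Adcy9* (0.793). *Agtr1b*, *Agtr2* and *Mas1* had too few UMIs for this reading.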

How the data were processed

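Single-cell suspensions were made into 10x 3′ libraries. What the authors deposited were raw UMI counts on mm10. The file headers name cellranger 5.0.1 for WT and mgR and 6.0.1 for mgR-LOS, whereas the submitters' processing notes name Cell Ranger 6.0.1 for all. A barcode was kept if it showed 600 to 5000 genes and no more than 10% of its UMIs were mitochondrial. A cell type required a set number of markers of its own list and of no other list. Called doublets were kept, and leaving them out was an alternative. UMIs were summed per population and scaled to CPM with numpy 2.4.6, pandas 2.3.3 and scipy 1.17.1, and intervals were exact: Poisson for levels, Clopper-Pearson for shares, conditional binomial for ratios. A count of 0 was taken to allow 3 UMIs. Ratios for calls had 0.5 UMI added to each sum. The script was tested on simulated counts. Clusters for an alternative were made with scanpy 1.11.5, and figures with matplotlib 3.10.9.

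The members and lists were chosen with earlier results of these data known, and gate thresholds were set after clusters had been seen. Listed genes were named where they had at least 100 UMIs and the highest level of their list in a cell type, or a ratio of at least 2 with an interval away from 1 in a type of at least 100 barcodes in both libraries. Not every gene that met the rule in a small subgroup is named. Others named, among them *Ren1*, *Grk5*, *Nr3c2* and *Nox4*, were chosen after their values were seen. A gene of the angiotensin II list, still counted in it, and a gene most like *Ace* are not reported here by name.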

Additional observations from a re-analysis of the deposited data

How the results depend on the processing

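The ratios of *Agtr1a*, *Ace* and *Enpep* in SMC-like and fibroblast-like cells were recomputed under 10 alternatives each, 120 values in all, of which 110 moved by less than the counting interval, and 10 moved by more. No ratio whose interval lay away from 1 reversed, but the SMC ratio of *Agtr1a* in mgR over WT, whose interval includes 1, passed to the other side of 1 under the mitochondrial setting, and the fibroblast ratio of *Ace* in mgR over WT, whose interval also includes 1, stayed on its side of 1 in 8 of 10 alternatives (0.969 to 1.02). The SMC ratio of *Agtr1a* in mgR-LOS over mgR ran from 1.41 to 1.81, so its call at 1.5 was not kept throughout. With at most 5% mitochondrial UMIs, which left 519 of 3448 WT, 813 of 2856 mgR and 2743 of 7173 mgR-LOS SMC-like barcodes, the SMC ratios of mgR over WT were 1.345 for *Agtr1a*, 2.31 for *Ace* and 1.97 for *Enpep*, and those of mgR-LOS over mgR 0.442 for *Ace* and 0.692 for *Enpep*. Cell types from graph clusters gave SMC ratios of mgR-LOS over mgR of 0.528 for *Ace* and 0.617 for *Enpep*. Chosen after seeing the data, leaving out modulated cells gave 1.69 and 0.651 for *Ace*, and weighting fibroblast subgroups as in WT gave 0.908 for *Ace* in mgR-LOS over mgR. The causes of the first and second group of shifts were not tested. Over all alternatives the fibroblast ratio of *Agtr1a* (mgR over WT) ran from 1.57 to 2.44. Of 556 values in all, shares of barcodes included, 460 stayed and 96 moved, 51 of these being shares. Of the moved shares, 30 came from leaving barcodes unthinned and 18 from thinning to 2000 UMIs. A share rises with depth, so these moves do not measure how firm the shares are. No paired analysis was possible because each condition had 1 library. Depth limits *Agtr1b*, *Agtr2*, *Agt* and *Mas1* throughout, and *Agtr1a* in endothelium within single libraries.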
